A study of Canis lupus familiaris with 12 samples.

Results

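The genes described here are 10 integrin and focal adhesion genes: the integrin α subunits ITGA5, ITGAV, ITGA6, ITGA7 and ITGA10, the β subunit ITGB6, the integrin-like gene ITGBL1, the co-receptor SDC4 and the actin linkers VCL and ACTN1. They were chosen by gene symbol because earlier results of these arrays showed them above or below the control, so their log2 ratios are a description and carry no test. They are 10 of the 4325 genes with a symbol of their own on the array and cover 65 of its 13056 spots. Each gene has 1 clone: ITGA5, ITGB6 and ITGBL1 have 1 spot each, 6 genes have 2 spots each, and the ACTN1 clone has 50 spots.

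Integrins are cell surface receptors made of an α and a β subunit. They bind proteins of the extracellular matrix outside the cell and, through talin, vinculin and α-actinin, the actin cytoskeleton inside it, at contact sites called focal adhesions. Kidney epithelial cells rest on a basement membrane rich in laminin, which integrins with the α6 subunit bind, whereas the integrin made of α5 and β1 is the classical fibronectin receptor of mesenchymal cells.

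MDCK cells, an epithelial line from dog kidney, were transfected with Slug, E47 or Snail, transcription factors known to repress the E-cadherin gene CDH1, and set against MDCK-CMV control cells. RNA of each transfectant was hybridised together with control RNA on 2-colour cDNA arrays. The species of the spotted clones is not given here, and how specifically dog transcripts bind them was not tested. For each of the 3 transfectants there are samples 1 and 2. Every sample has an array titled Cy5 and an array titled Cy3, hence 4 arrays per transfectant and 12 altogether, and arrays are named here by sample and titled dye. The labels do not say whether a transfectant was 1 clone or a pool, whether samples 1 and 2 were separate cultures, or whether the control RNA was 1 pool, and the same control stands under every ratio. Arrays held values for 10654 to 12982 spots; the number of arrays limits the precision, and a ratio gives no level of a gene in either cell.

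The labels do not settle the direction of the deposited ratios. Within transfectants, arrays were correlated with their deposited signs, after the rows had been realigned as described below. So taken, 11 pairs of arrays correlated negatively (mean r across spots -0.65, between -0.83 and -0.47) and 7 pairs positively (mean 0.61). The search for displaced rows used arrays already turned as stated next. It therefore favours these signs, and the sizes of these r are no separate check of the turning. With rows as deposited, the mean r of a turned array with the others of its transfectant lay between 0.36 and 0.58. These signs did not follow the titled dyes. The arrays were turned to a common sign, 5 of 12 of them, so that CDH1 lay below the control in every transfectant. Every direction below is assumed in this sense. Judged by the deposited signs, dye was not balanced within the numbered samples. In Slug and in Snail the turned arrays all came from the same sample, so there a dye effect and a sample difference cannot be told apart. Averaging the arrays of a sample need not cancel a dye bias. Such a bias may remain in the replicate means and their SDs, and its size was not tested. Were the sign of a transfectant the other way, its higher and lower genes would change places. Which members lie on the same side as CDH1 and which on the opposite side does not depend on that choice.

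On 5 of the 12 arrays, stretches of the deposited table do not line up with the spot names. The values of 6 stretches stand displaced by whole multiples of 110 rows, in blocks that changed places within the stretch. Between 16.9% of the rows (Slug 1, titled Cy5) and 45.5% (Slug 2, titled Cy3) are displaced on these arrays. Duplicate spots of 2165 clones correlated within these 5 arrays with r between 0.31 and 0.48 as deposited and between 0.74 and 0.87 once the stretches were put back, against 0.67 to 0.85 on the other 7 arrays. Replicates of Slug correlated across genes with r = 0.93 after realignment and 0.72 as deposited, those of E47 with 0.79 and 0.73, and those of Snail with 0.68 and 0.65. The search for displaced rows matched arrays of the same transfectant, so a rise of these replicate correlations follows from it and is no separate check.

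The 50 ACTN1 spots, spread over the whole table, show the displacement directly. On the Slug 2 array titled Cy3, the spot in row 3265 read 0.03 as deposited and 0.94 once realigned, and the spot in row 5697 read -1.05 and 1.38. On that array 32 ACTN1 spots lay above 0 as deposited and 48 of 49 after realignment. On the E47 1 array titled Cy3 the counts were 36 as deposited and 48 of 48 realigned. The values below are from realigned rows, and deposited values are given beside the members they move.

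**Figure D1:**
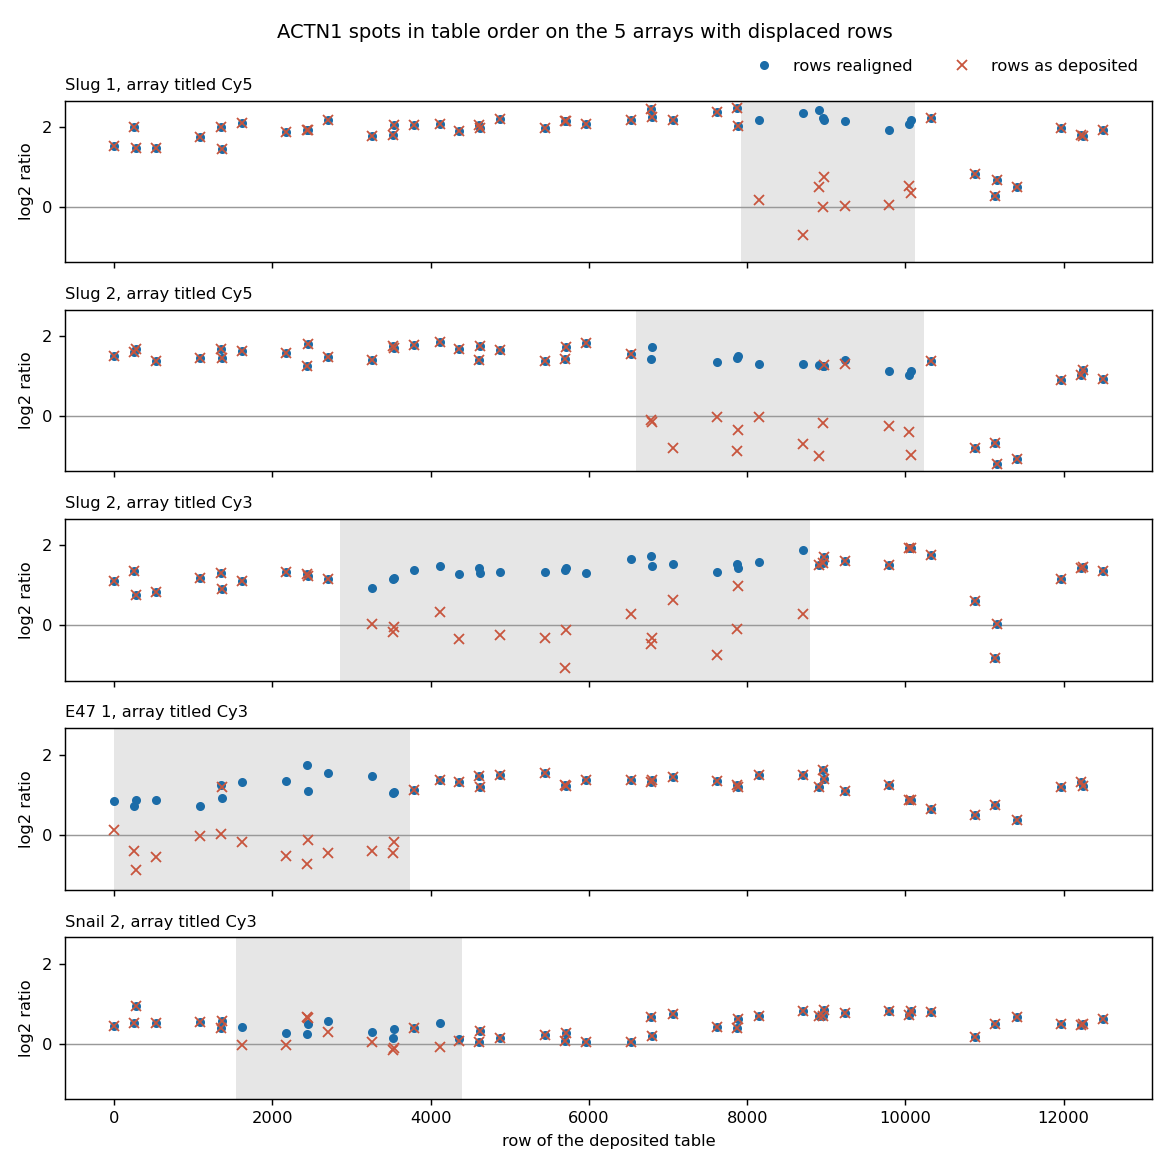
Log2 ratio of the ACTN1 spots (vertical axis) against their row in the deposited table (horizontal axis) on the 5 arrays with displaced rows, with the displaced stretches shaded. Crosses are the deposited values and circles the realigned ones. Inside the shaded stretches most crosses leave the level of the other ACTN1 spots, as on Slug 1, titled Cy5, where they lie between -0.70 and 0.75, and the circles return to it.

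CDH1 and the labels were checked first. CDH1 had a mean log2 ratio of -2.36 ± 0.06 in Slug, -2.41 ± 0.08 in E47 and -2.29 ± 0.24 in Snail (SD, n = 2 replicates each), which the turning of the arrays set to be negative. SNAI1, the gene of Snail, averaged 0.67 ± 0.04 in Slug, 0.15 ± 0.00 in E47 and 1.70 ± 0.95 in Snail, so it stood highest in the transfectant named for it, with replicate values of 1.04 and 2.37. TCF3, the gene that encodes E47, averaged 0.76 ± 0.23 in E47 but also 1.11 ± 0.01 in Slug, and 0.06 ± 0.09 in Snail. No spot is named SNAI2, the gene of Slug. Of the 7 epithelial marker genes tested, 5 were lower than the control in Slug, 5 in E47 and 5 in Snail, beside 19.3%, 5.45% and 12.5% of all genes. CDH1 is 1 of these 5 in every transfectant, and the turning of the arrays set its side in advance. The list medians were -1.67, -1.34 and -1.59 log2, and the lowest members included KRT19 at -2.19, -2.15 and -2.67. With rows as deposited the calls of EPCAM and KRT7 in Slug and of KRT8 in E47 and Snail ended. That of KRT8 in Snail was lost under 12 of 19 alternatives, among them array medians set to 0 and each titled dye alone. In Slug that of KRT7 was lost under 5 of 19 and that of EPCAM under 2 of 19. In E47 that of KRT8 was lost under 5 of 19 and that of DSP under 3 of 20. Of 4 fibroblast markers, LUM and COL1A2 were higher in Slug and in Snail while PDGFRA was lower in Slug (-0.93) and THY1 in Snail (-0.82). In E47 COL1A2 (3.02) was higher and the other 3 did not pass. In such bulk RNA, fewer cells of a type and less RNA per cell cannot be told apart. No leukocyte marker was higher than the control in any transfectant (limma; 5 tested each, 3, 2 and 2 of them at an unadjusted p under 0.05 in Slug, E47 and Snail, those passing the threshold being lower), and ENG in Slug (1.51) was the only endothelial marker called. The part of these markers in the results on the 10 genes was not tested.

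Of the 10 genes, 8 had a mean above the control in Slug, 9 in E47 and, of the 9 measured in both Snail replicates, 6 in Snail. Across all genes tested the shares above 0 were 51.29%, 49.99% and 41.55%. The median of the members was 1.20 log2 in Slug, 1.09 in E47 and 0.17 in Snail, beside medians of 0.02, 0.00 and -0.05 over all genes. By the threshold of the fit across all genes (limma, adjusted p under 0.05), 9 of 10 members differed from the control in Slug, where 41.9% of all genes did. Of these 7 were higher, beside 22.6% of all genes, and 2 lower, beside 19.3%. In E47 9 of 10 members passed, beside 13.7% of all genes: 8 were higher, beside 8.22%, and 1 lower, beside 5.45%. In Snail 4 of 9 passed, beside 19.1%: 2 were higher, beside 6.57%, and 2 lower, beside 12.5%. Since these contrasts chose the members, nothing is read from the counts. Without either Slug sample the count in Slug was 7 of 10, ITGA6 and ITGAV being lost. Without Snail sample 2 the count in Snail was 2 of 9, without E47 sample 2 the count in E47 was 5 of 10, and with rows as deposited the counts were 7, 5 and 3 in Slug, E47 and Snail.

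**Figure D2:**
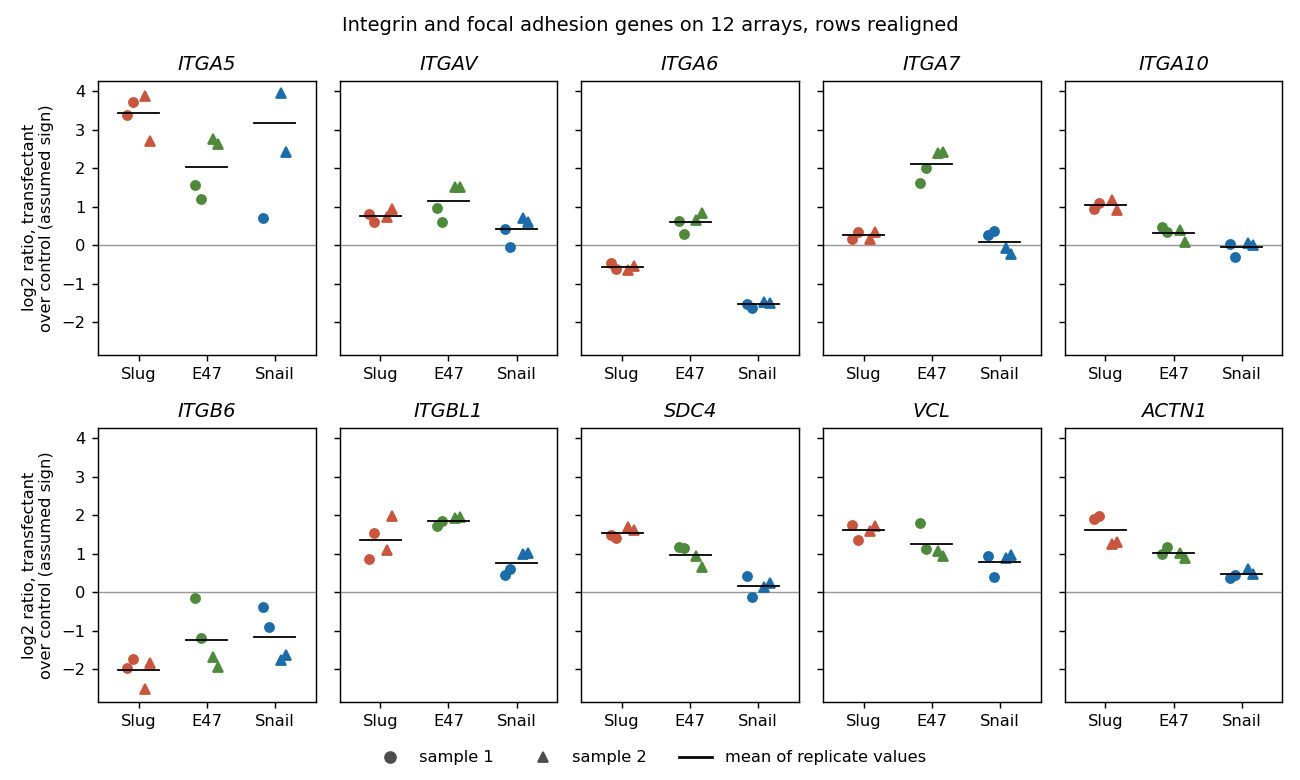
Log2 ratio of transfectant over control (vertical axis, assumed sign) for each of the 10 genes on every array, with sample 1 as circles, sample 2 as triangles and the mean of the replicate values as a line; for ITGA5 in Snail the line is sample 2 alone. ITGB6 lies below 0 on all 12 arrays, ITGA6 lies below 0 in Slug and Snail and above 0 in E47, and ITGA7 stands apart from 0 mainly in E47.

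ITGA5 encodes the α5 subunit, which pairs with β1 to form the fibronectin receptor, and it had the highest mean ratio of the 10 genes in Slug. Its single spot read 3.38 and 3.72 on the arrays of Slug 1 and 3.89 and 2.72 on those of Slug 2 (titled Cy5 and Cy3 in this order, here and below). The E47 arrays read 1.56 and 1.19 in sample 1 and 2.76 and 2.62 in sample 2. It lay above the control on all 11 arrays with a value. In Snail the first array of sample 1 has no value, the second read 0.71, and sample 2 read 3.94 and 2.43. The Snail arrays therefore span the whole range of the other 2 transfectants, and no Snail mean with an SD can be given.

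The mean of ITGA5 was 3.43 ± 0.17 in Slug and 2.03 ± 0.93 in E47 (SD, n = 2 each), which are 10.8 and 4.09 times the control. The 2 E47 replicates, 1.37 and 2.69, differ by more than the distance between the higher of them and the lower Slug replicate, 3.30. With rows as deposited the second array of E47 1 would read -0.49 in place of 1.19.

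ITGAV encodes αV, a subunit with several β partners that binds fibronectin and vitronectin. It read 0.80 and 0.59 in Slug 1 and 0.74 and 0.93 in Slug 2. For E47 the values were 0.98 and 0.61 in sample 1 and 1.50 and 1.52 in sample 2. The Snail arrays read 0.43 and -0.05 in sample 1 and 0.71 and 0.59 in sample 2. The 3 transfectants thus overlap, with 11 of 12 arrays above 0.

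The means of ITGAV were 0.77 ± 0.10 in Slug, 1.15 ± 0.51 in E47 and 0.42 ± 0.33 in Snail (SD, n = 2 each). E47 exceeds Slug by less than the SD of E47, and Slug exceeds Snail by 0.35, about the SD of Snail. As deposited, the arrays of Slug 2 read 0.00 and -0.47, which would set that sample apart from Slug 1.

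ITGA6 encodes the α6 subunit of laminin receptors, found with β4 in the hemidesmosomes of epithelia, and its 3 group means were the most spread of the 9 genes with a mean in every transfectant. It read -0.46 and -0.63 in Slug 1 and -0.65 and -0.54 in Slug 2. In E47 it read 0.62 and 0.28 in sample 1 and 0.65 and 0.83 in sample 2. For Snail the values were -1.54 and -1.64 in sample 1 and -1.49 and -1.50 in sample 2. No array of one transfectant overlaps another: Snail lies lowest, Slug between and E47 above 0.

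The means of ITGA6 were -0.57 ± 0.03 in Slug, 0.59 ± 0.20 in E47 and -1.54 ± 0.07 in Snail (SD, n = 2 each). In Snail that is 2.91 times below the control and in E47 1.51 times above it. The gene lies on the side of CDH1 in Slug and Snail and on the opposite side in E47, a contrast that stands whichever way the arrays run. Its 2 spots differed by a median of 0.12 within an array. As deposited, the arrays of Slug 2 read 0.00 and -0.15.

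ITGA7 encodes α7, a laminin receptor subunit best known from muscle. In Slug it read 0.17 and 0.34 in sample 1 and 0.17 and 0.34 in sample 2. The E47 arrays read 1.63 and 2.00 in sample 1 and 2.41 and 2.42 in sample 2. In Snail it read 0.27 and 0.38 in sample 1 and -0.07 and -0.23 in sample 2. All 4 E47 arrays lie above every array of the other 2 transfectants, which overlap each other near 0.

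The means of ITGA7 were 0.26 ± 0.00 in Slug, 2.11 ± 0.42 in E47 and 0.09 ± 0.34 in Snail (SD, n = 2 each), and the E47 mean is 4.33 times the control. The first E47 1 array holds the largest gap between duplicate spots of any of the 10 genes, 0.67 and 2.59, a difference of 1.93. As deposited, the arrays of Slug 2 read -0.05 and -0.41, on the other side of 0 from Slug 1, so the close match of the Slug samples holds only after realignment.

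ITGA10 encodes α10, a collagen-binding subunit known from cartilage. It read 0.95 and 1.10 in Slug 1 and 1.18 and 0.91 in Slug 2. For E47 the values were 0.46 and 0.33 in sample 1 and 0.39 and 0.08 in sample 2. The Snail arrays read 0.02 and -0.32 in sample 1 and 0.06 and 0.00 in sample 2. The 3 ranges follow each other without overlap, Slug above E47 and E47 above Snail. Between E47 and Snail the margin is narrow, the lowest E47 array reading 0.08 and the highest Snail array 0.06. Single spots of E47 and Snail overlap, with E47 spots down to -0.24 and Snail spots up to 0.20.

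The means of ITGA10 were 1.03 ± 0.02 in Slug, 0.32 ± 0.11 in E47 and -0.06 ± 0.13 in Snail (SD, n = 2 each), so that only in Slug does it stand well clear of 0, at 2.05 times the control. As deposited, the second array of E47 1 read -0.07 in place of 0.33, and E47 would overlap Snail.

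ITGB6 encodes β6, an epithelial subunit that pairs with αV and binds fibronectin and the latency peptide of TGF-β. It was below the control on all 12 arrays, the only one of the 10 genes on the side of CDH1 in every transfectant. It read -1.96 and -1.74 in Slug 1 and -2.52 and -1.84 in Slug 2. In E47 it read -0.15 and -1.20 in sample 1 and -1.68 and -1.94 in sample 2. For Snail the values were -0.37 and -0.90 in sample 1 and -1.75 and -1.62 in sample 2. Sample 1 lies nearer to 0 than sample 2 in E47 and in Snail. The replicate values of Slug, -1.85 and -2.18, stand in the same order, though the arrays of its samples overlap.

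The means of ITGB6 were -2.02 ± 0.24 in Slug, -1.24 ± 0.80 in E47 and -1.16 ± 0.75 in Snail (SD, n = 2 each), between 2.24 and 4.04 times below the control. The spread between replicates is larger than the distance between E47 and Snail, and Slug overlaps both. Its spot lies in displaced rows on 2 arrays, where the deposited values are -0.40 on the second array of E47 1 and -0.34 on that of Snail 2. ITGAV, which encodes its α partner, lies on the opposite side in all 3 transfectants.

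ITGBL1 encodes a secreted protein with the cysteine-rich repeats of β integrins but no membrane anchor, and none of its values lies in displaced rows. It read 0.87 and 1.54 in Slug 1 and 1.09 and 1.98 in Slug 2. The E47 arrays read 1.71 and 1.86 in sample 1 and 1.92 and 1.95 in sample 2. In Snail it read 0.44 and 0.60 in sample 1 and 0.99 and 1.01 in sample 2. All 12 arrays lie above 0, E47 and Snail do not overlap, and Slug overlaps both.

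The means of ITGBL1 were 1.37 ± 0.24 in Slug, 1.86 ± 0.11 in E47 and 0.76 ± 0.34 in Snail (SD, n = 2 each). These are 2.58, 3.63 and 1.69 times the control. In every sample of each transfectant the array titled Cy3 read higher than the array titled Cy5, with the widest gaps in Slug.

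SDC4 encodes syndecan-4, a heparan sulfate proteoglycan that binds fibronectin beside integrins at focal adhesions. It read 1.49 and 1.40 in Slug 1 and 1.69 and 1.61 in Slug 2. For E47 the values were 1.17 and 1.14 in sample 1 and 0.94 and 0.66 in sample 2. The Snail arrays read 0.43 and -0.12 in sample 1 and 0.14 and 0.23 in sample 2. The ranges do not overlap, Slug being highest and Snail close to 0.

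The means of SDC4 were 1.54 ± 0.15 in Slug, 0.98 ± 0.25 in E47 and 0.17 ± 0.02 in Snail (SD, n = 2 each), 2.92 and 1.97 times the control in Slug and E47. Realignment matters here: as deposited, 3 Slug arrays read 1.24, 0.87 and 0.40, and Slug would overlap E47.

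VCL encodes vinculin, which binds talin and actin filaments and so couples integrins to the cytoskeleton. It read 1.76 and 1.36 in Slug 1 and 1.60 and 1.71 in Slug 2. In E47 it read 1.81 and 1.13 in sample 1 and 1.08 and 0.95 in sample 2. For Snail the values were 0.93 and 0.41 in sample 1 and 0.88 and 0.96 in sample 2. All 12 arrays lie above 0, and Slug lies above Snail without overlap while E47 overlaps both.

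The means of VCL were 1.61 ± 0.07 in Slug, 1.24 ± 0.32 in E47 and 0.79 ± 0.18 in Snail (SD, n = 2 each), which are 3.05, 2.37 and 1.73 times the control. As deposited, the arrays read 0.22 in place of 1.76 (Slug 1, titled Cy5), 0.86 in place of 1.60 and 0.61 in place of 1.71 (the Slug 2 arrays), and 0.42 in place of 0.96 (Snail 2, titled Cy3). The median difference of its duplicate spots was 0.07 after realignment and 0.51 as deposited.

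ACTN1 encodes α-actinin-1, which crosslinks actin filaments and binds β integrin tails, and its 50 spots make it the most often measured of the 10 genes. Means over its spots were 1.91 and 1.99 in Slug 1 and 1.26 and 1.30 in Slug 2. In E47 they were 1.01 and 1.18 in sample 1 and 1.02 and 0.89 in sample 2. In Snail they were 0.36 and 0.45 in sample 1 and 0.61 and 0.47 in sample 2. All 12 arrays lie above 0, and the ranges of the 3 transfectants follow each other without overlap, Slug highest and Snail lowest. As deposited, 3 Slug arrays read 1.55, 0.80 and 0.71 and the second array of E47 1 read 0.75, and Slug would overlap E47.

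The means of ACTN1 were 1.61 ± 0.48 in Slug, 1.02 ± 0.10 in E47 and 0.47 ± 0.09 in Snail (SD, n = 2 each), or 3.06, 2.03 and 1.39 times the control. Slug samples 1 and 2, at 1.95 and 1.28, differ by more than the arrays of either sample do. The spots of a single array have an SD between 0.21 and 0.70, and on Slug 2, titled Cy5, the 4 spots in rows 10881 to 11409 read -0.80, -0.66, -1.19 and -1.07 outside any displaced stretch. The median over spots on that array was 1.43, against a mean of 1.26. The measured spots in these rows lay below the array median on every Slug and E47 array. On Slug 1, titled Cy5, they read 0.84, 0.28, 0.68 and 0.51, where the median was 2.04. In Snail they lay on both sides of the array medians. These spots lower the Slug and E47 means, and means without them were not computed.

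The differences between transfectants bear on whether the factors act alike on these genes, and all of them share the control. Slug against Snail, 6 of 9 members passed the threshold of the fit, beside 31.9% of all genes, and all 6 were higher in Slug, beside 20.7%. E47 against Snail, 4 of 9 passed, beside 12.7%, and all 4 were higher in E47, beside 9.58%, with none lower, beside 3.14%. Slug against E47, 3 of 10 passed, beside 10.9%: 1 was higher in Slug, beside 5.69%, and 2 were lower, beside 5.21%. With rows as deposited 2, 3 and 1 members passed in these pairs. With 1 sample left out, 4 to 7 passed for Slug against Snail (4 without either Slug sample), 2 to 4 for E47 against Snail, and 2 to 5 for Slug against E47 (5 without either Snail sample, 2 without either Slug sample or E47 sample 1). The arrays of Slug and Snail did not overlap for 5 of the 10 genes, beside 36.8% of all genes with a value on every array. Those of E47 and Snail did not overlap for 6, beside 21.9%, and those of Slug and E47 for 5, beside 25%. Nothing is read from these counts, since the rule that chose the members used the same ratios.

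Slug minus Snail was 1.38 ± 0.17 for SDC4, 1.14 ± 0.22 for ACTN1 and 1.10 ± 0.15 for ITGA10 (log2 difference ± SE of the fit, here and below). It was 0.97 ± 0.16 for ITGA6, 0.81 ± 0.19 for VCL and 0.61 ± 0.20 for ITGBL1. These 6 genes stood higher in Slug than in Snail, though ITGA6 lay below the control in both. For ITGAV the difference was 0.35 ± 0.25, for ITGA7 0.17 ± 0.23 and for ITGB6 -0.85 ± 0.40, which did not pass.

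E47 minus Snail was 2.13 ± 0.16 for ITGA6 and 2.03 ± 0.23 for ITGA7, the widest differences of any pair. It was 1.10 ± 0.20 for ITGBL1 and 0.81 ± 0.17 for SDC4. The 2 laminin receptor subunits thus separate E47 from Snail by about 4.39 and 4.08 times, while the difference of ITGB6, -0.08 ± 0.40, was smaller than its SE. Without E47 sample 2, the count of members that passed fell to 2 of 9.

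Slug minus E47 was -1.86 ± 0.23 for ITGA7 and -1.16 ± 0.16 for ITGA6, both lower in Slug. It was 0.72 ± 0.15 for ITGA10, higher in Slug. The difference of ITGA5, 1.40 ± 0.37, did not pass, nor did those of ACTN1 (0.59 ± 0.22), SDC4 (0.57 ± 0.17) and VCL (0.36 ± 0.19). Were the sign of Slug turned, its difference from E47 would be -0.02 for ITGA6 and -2.37 for ITGA7, and its difference from Snail would be 2.11 for ITGA6 and -1.71 for SDC4. Were the sign of E47 turned, its difference from Snail would be 0.95 for ITGA6 and -2.20 for ITGA7.

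**Figure D3:**
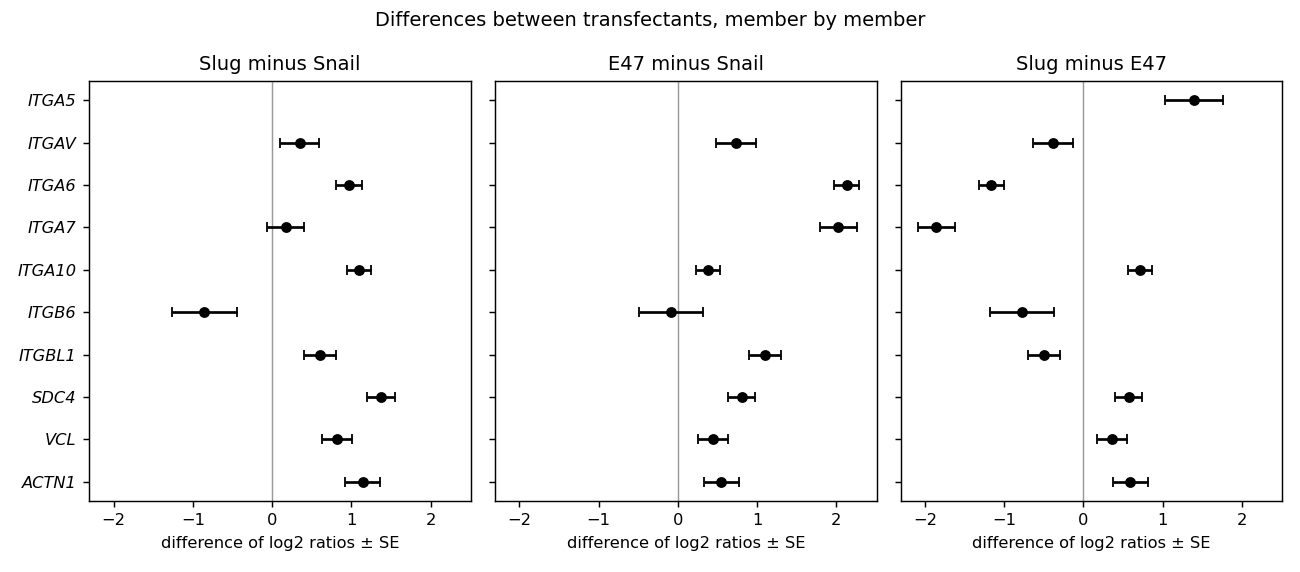
Difference of log2 ratio (horizontal axis) with the SE of the fit as bars, for each of the 10 genes in 3 pairs of transfectants; ITGA5 has no value where Snail is involved. ITGA6 and ITGA7 stand farthest from 0 in E47 minus Snail (2.13 and 2.03), and SDC4, ACTN1 and ITGA10 in Slug minus Snail (1.38, 1.14 and 1.10).

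Of 14 other integrin subunits tested in Slug, 2 rose, 1 fell and 11 did not pass, where 41.9% of all genes passed; the shares of all genes were 13.7% in E47 and 19.1% in Snail. ITGA2, the α subunit of a collagen receptor, rose by 0.58 ± 0.19 (SD, n = 2, adjusted p = 0.00407). ITGB5, a β partner of αV, rose by 0.50 ± 0.04 (adjusted p = 0.0308). ITGAX, a leukocyte subunit, fell by 0.78 ± 0.05 (adjusted p = 0.000575). In E47 none of 13 passed (limma), 2 had an unadjusted p under 0.05, and the lowest adjusted p was 0.0912. In Snail ITGA8, an α subunit known from kidney development, rose by 0.49 ± 0.15 (adjusted p = 0.024) and 12 of 13 did not pass. Their medians were -0.01 in Slug, 0.08 in E47 and 0.07 in Snail, beside medians over all genes of 0.02, 0.00 and -0.05. The call of ITGA8 ended without Snail sample 1 (adjusted p = 0.118), that of ITGA2 without Slug sample 2 (0.11), and that of ITGB5 without either Slug sample (0.209 and 0.152) and with rows as deposited (0.0544), which also ended that of ITGA8 (0.064).

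Among the membrane partners of integrins, the tetraspanins CD63 and CD151 moved to opposite sides in each transfectant. CD63, a tetraspanin of late endosomes and the cell surface, rose by 1.97 ± 0.33 in Slug (adjusted p = 0.000143), by 1.32 ± 0.39 in E47 (0.00398) and by 0.75 ± 0.55 in Snail (0.0356). CD151, which binds laminin-binding integrins, fell by 1.76 ± 0.09 in Slug (adjusted p = 4.45e-05), by 0.82 ± 0.39 in E47 (0.00596) and by 0.63 ± 0.12 in Snail (0.018). In Slug 3 partners rose, 3 fell and 4 did not pass, against 1, 1 and 7 in E47 and 1, 1 and 6 in Snail, beside the shares of all genes given above; the list medians were 0.13, -0.08 and 0.04. The others called in Slug were SLC3A2, the CD98 heavy chain (0.50 ± 0.05, adjusted p = 0.00636), the syndecan SDC3 (0.43 ± 0.04, 0.0233), the collagen receptor kinase DDR2 (-0.65 ± 0.16, 0.00537) and the urokinase receptor PLAUR (-0.42 ± 0.27, 0.0366). With rows as deposited the Slug calls of SLC3A2, SDC3 and PLAUR ended (limma, adjusted p = 0.214, 0.0508 and 0.0927). So did those of CD151 in E47 (0.0608) and of CD63 and CD151 in Snail (0.082 and 0.164). The Slug calls of CD63 and CD151 held under every alternative in which they could be tested, but CD151 in Slug was -1.002 with rows as deposited. Their E47 calls ended without E47 sample 2 (adjusted p = 0.123 for CD63 and 0.149 for CD151), and their Snail calls without Snail sample 2 (0.353 and 0.122). Those of SLC3A2, SDC3 and PLAUR ended without Slug sample 1 (0.105, 0.204 and 0.456) and without Slug sample 2 (0.0691, 0.138 and 0.0546), and that of DDR2 with rows as deposited (0.218).

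Of 10 other actin linkers tested in each transfectant, 5 rose in Slug, 3 in E47 and 2 in Snail, and none fell (limma; at an unadjusted p under 0.05, 7, 4 and 4 differed in either direction). Of all genes 22.6%, 8.22% and 6.57% rose and 19.3%, 5.45% and 12.5% fell in Slug, E47 and Snail, so in a list of 10 the absence of lower genes is near the background in E47 and Snail. The list medians were 0.34, 0.21 and 0.11. TLN1, which encodes talin-1, the linker that activates integrins and binds vinculin, rose by 2.08 ± 0.14 in Slug (SD, n = 2, adjusted p = 5.65e-06) and by 0.60 ± 0.13 in E47 (0.00818), and stood at 0.23 in Snail (0.186). MSN, which encodes moesin, a linker of membrane proteins to actin, rose by 1.24 ± 0.25 in Slug (adjusted p = 0.00492), by 1.19 ± 0.34 in E47 (0.0171) and by 1.33 ± 0.90 in Snail (0.00962). In Slug the actin-binding PFN1 (0.65 ± 0.31, 0.0069), the paxillin relative TGFB1I1 (0.51 ± 0.05, 0.0039) and the muscle α-actinin ACTN3 (0.43 ± 0.01, 0.0142) rose too. TGFB1I1 rose by 0.37 ± 0.01 in E47 (0.0423), and FERMT2, the integrin activator kindlin-2, rose by 0.51 ± 0.06 in Snail (0.0226). ACTN3 is a relative of ACTN1, and how far their probes bind each other's transcripts was not tested. With rows as deposited the E47 calls of MSN and TGFB1I1 ended (limma, adjusted p = 0.0564 and 0.225). So did those of ACTN3 in Slug (0.104) and FERMT2 in Snail (0.0537).

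The call of TLN1 in Slug held under every alternative in which it could be tested, whereas its E47 call ended without E47 sample 1 (adjusted p = 0.0504), without E47 sample 2 (0.181) and with rows as deposited (0.166). MSN was lost without Slug sample 2 (0.0711), without E47 sample 1 (0.072) or 2 (0.302) and without Snail sample 2 (0.0626). The Slug calls of PFN1 (0.171 without Slug sample 1), TGFB1I1 (0.0852 and 0.0523 without Slug sample 1 and 2, and 0.14 log2 with an adjusted p of 0.496 with rows as deposited) and ACTN3 (0.147 and 0.129) and the Snail call of FERMT2 (0.0509 and 0.124 without Snail sample 1 and 2) were lost likewise. TGFB1I1 in E47 was lost when any Slug or E47 sample was left out (0.0918 to 0.331).

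Among kinases and adaptors of focal adhesions, genes passed in both directions. In Slug 7 rose, 6 fell and 10 did not pass, in E47 1 rose, 2 fell and 19 did not pass, and in Snail 3 rose, 8 fell and 12 did not pass. In E47 the share that passed is that of all genes (13.7%), and those of all genes in Slug and Snail were 41.9% and 19.1%. The list medians were 0.05, 0.06 and -0.04 in Slug, E47 and Snail. PXN, which encodes the adaptor paxillin, rose by 1.55 ± 0.21 in Slug (SD, n = 2, adjusted p = 4.99e-05). The Src family kinases FYN and YES1 moved to opposite sides in every transfectant. FYN rose by 1.41 ± 0.16 in Slug (4.15e-05), 0.46 ± 0.14 in E47 (0.0281) and 0.65 ± 0.02 in Snail (0.00517). YES1 fell by 1.27 ± 0.14 in Slug (9.59e-05), by 0.59 ± 0.03 in E47 (0.014) and by 0.82 ± 0.25 in Snail (0.00261). With rows as deposited the Slug values were 0.93 for PXN, 0.86 for FYN and -0.74 for YES1, all still past the threshold. The E47 calls of FYN and YES1 ended with those rows (limma, adjusted p = 0.0854 and 0.079).

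ARHGAP5, a GTPase-activating protein, fell by 1.03 ± 0.06 in Slug (adjusted p = 0.000189), by 0.48 ± 0.04 in E47 (0.0243) and by 0.59 ± 0.21 in Snail (0.00899; 0.085 without Snail sample 2). In Slug the small GTPase RHOC rose by 0.67 ± 0.05 (0.00849) and CDC42 fell by 0.64 ± 0.03 (0.00222). The call of CDC42 ended with rows as deposited (-0.40, limma, adjusted p = 0.0933). In the fit on single clones, the clone of CDC42 that was read stood at -0.15 (limma, adjusted p = 0.309). The gene value averages the clones, so the clones of CDC42 differ. In Snail the kinase PAK2 fell by 1.04 ± 0.00 (0.000687) and ROCK2, a kinase that acts on the actin cytoskeleton, fell by 0.73 ± 0.46 (0.0239), while the adaptor GRB2 rose by 0.99 ± 0.05 (0.00125) and RHOC by 0.61 ± 0.37 (0.0284). PAK2 and GRB2 also passed in Slug, PAK2 at -0.60 ± 0.19 (0.00297) and GRB2 at 0.40 ± 0.16 (0.025). With rows as deposited the Slug calls of RHOC and GRB2 ended (limma, adjusted p = 0.0903 and 0.07). So did those of RHOC in Snail (0.0998) and of ARHGAP5 in E47 and Snail (0.192 and 0.0967). The Slug call of PAK2 ended without Slug sample 1, where the value was -0.47. It also ended in the fit on single clones, where the clone that was read stood at 0.02, so its clones differ. The Slug call of GRB2 ended without Slug sample 1 (0.28 log2) or 2 (0.51 log2). Calls of YES1, ARHGAP5 and FYN in E47 ended without E47 sample 1 (0.111, 0.142 and 0.101) and without E47 sample 2 (0.196, 0.27 and 0.367), FYN also without either Slug sample (0.0504). That of ROCK2 ended without Snail sample 1 (0.175), that of RHOC in Snail without Snail sample 2 (0.269) and that of RHOC in Slug without Slug sample 1 (0.0695) or 2 (0.0939).

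Genes of matrix proteins that integrins bind held the largest changes of the 5 lists. In Slug 8 rose, 2 fell and 8 did not pass, in E47 4 rose, 2 fell and 11 did not pass, and in Snail 4 rose, 1 fell and 13 did not pass, with list medians of 0.24, 0.09 and 0.12 and the shares of all genes 41.9%, 13.7% and 19.1%. FN1, which encodes fibronectin, the ligand of the α5 integrin and of syndecan-4, rose by 2.00 ± 0.19 in Slug (SD, n = 2, adjusted p = 2.9e-05), by 1.29 ± 0.14 in E47 (0.000929) and by 1.00 ± 0.38 in Snail (0.00249). COL1A2, a chain of type I collagen, rose by 1.60 ± 0.49 in Slug (0.000526), by 3.02 ± 0.61 in E47 (8.32e-05) and by 1.99 ± 0.17 in Snail (0.000665). SPP1, which encodes osteopontin, a ligand of αV integrins, fell by 3.78 ± 0.07 in Slug (2.45e-05), by 3.02 ± 0.56 in E47 (0.000218) and by 3.25 ± 0.84 in Snail (0.00024). These 9 calls of FN1, COL1A2 and SPP1 held under every alternative in which they could be tested.

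CCN2, a matricellular protein that binds integrins, rose by 1.65 ± 0.17 in Slug (adjusted p = 4.99e-05), by 1.06 ± 0.08 in E47 (0.00162) and by 0.69 ± 0.35 in Snail (0.0109; 0.109 without Snail sample 2). Its relative CCN1 rose by 1.44 ± 0.02 in Slug (4.45e-05), where NID1, the basement membrane protein nidogen-1, fell by 1.08 ± 0.13 (0.000804; -0.37 with rows as deposited, 0.27). In E47 LAMB1, a laminin chain, rose by 0.74 ± 0.52 (0.0241; 0.417 without E47 sample 2) and the protease PLAU fell by 0.94 ± 0.56 (0.00711; 0.136 without E47 sample 2). Both also passed in Slug, LAMB1 at 0.91 ± 0.28 (0.00323) and PLAU, on the other side of the control than in E47, at 0.61 ± 0.08 (0.0177). The E47 call of LAMB1 ended with rows as deposited (limma, adjusted p = 0.166). The Slug call of LAMB1 ended without Slug sample 2 (0.0705) and with rows as deposited (0.27 log2, 0.501), and that of PLAU without Slug sample 1 (0.0985) or 2 (0.155) and with rows as deposited (0.23 log2, 0.4). In Snail LTBP1, which binds latent TGF-β, rose by 0.65 ± 0.48 (limma, adjusted p = 0.0272). That call ended with rows as deposited (0.0647) and without Snail sample 2, where the value was 0.31.

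**Figure D4:**
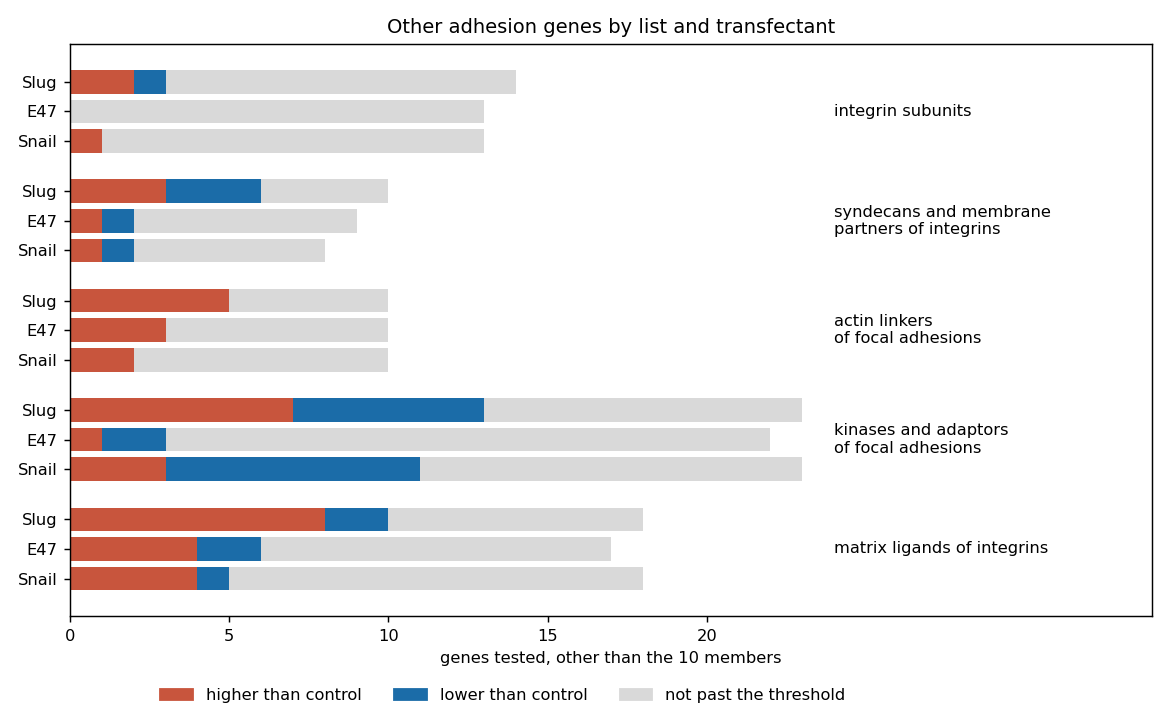
Number of genes tested in each of 5 lists of adhesion genes (horizontal axis), other than the 10 members, that were higher than the control, lower, or not past the threshold (limma, adjusted p under 0.05), for each transfectant. No actin linker was lower in any transfectant (5, 3 and 2 higher in Slug, E47 and Snail), while kinases and adaptors were called in both directions (7 higher and 6 lower in Slug).

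The genes whose ratios ran closest to a member were sought for the 4 members with the widest range of group means, by the root mean square difference of log2 ratio over the arrays, among 3656 or 3657 genes with a value on all 12. Closest to ITGA6 were PPARG (0.37), SMARCE1P5 (0.42) and MYC (0.48), where the median over all genes was 1.06. PPARG averaged -0.66 in Slug, 0.45 in E47 and -1.16 in Snail. Closest to ITGA7 were ID4 (0.48), DOCK4 (0.49) and STMN1 (0.51), with a median over all genes of 1.29. ID4 averaged 0.58 in Slug, 1.45 in E47 and 0.06 in Snail, so its distance from ITGA7 is largest in E47. Closest to SDC4 were TOB1 (0.26), TMEM109 (0.28) and GLG1 (0.29), with a median of 1.09. ITGA5, compared over 11 arrays, was closest to WNT5A (0.74), TIMP1 (0.98) and TCF4 (1.07), with a median of 2.84. These distances are descriptions over arrays that share control RNA, and the arrays of a sample share its RNA.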

How the data were processed

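The authors deposited 1 table of log2 ratios of the 2 channels for 13056 spots on 12 arrays. How the arrays were scanned, corrected for background, normalised and filtered was not stated in the labels or the file. The scale was tested on the deposited log2 values: below -0.5, 100% of their antilogs are whole thousandths. Spots were named through the platform annotation, in which 8047 spots have 1 symbol, 276 have several and 4733 have none; only the first entered the gene values. No sequence is printed, since the files hold none.

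The members and the gene lists were chosen with earlier results of these data known. Named are all 10 members; per list and comparison, every non-member past the threshold, or the 6 largest where there were more, with their calls in the other transfectants; the 3 nearest genes of the 4 members with the widest range; and CDH1, SNAI1 and TCF3 as checks. SPARC, named below, was chosen after its values were seen.

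Displaced rows were found by correlating windows of 100 rows of each array with the other arrays of the same transfectant at every offset, without the member spots. Blocks were put back where this raised the fit, and no array gained from a further move. A later scan set each deposited array against the mean of the other arrays after realignment. Of 1150 windows with r of at least 0.6, 163 matched best at another offset than 0. Of these, 145 lay at whole multiples of 110 rows, on 5 arrays. On simulated data 2 of 2 displaced stretches were found and 0 elsewhere. This step was chosen after seeing the data.

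Spots of a clone, then clones of a gene, were averaged, and the 2 arrays of a sample gave 1 replicate value, for which both were needed. limma 3.58.1 in R 4.3.3 moderated the spread over all genes (prior SD 0.17, prior degrees of freedom 5.73; at most 3 residual degrees of freedom), with the 3 transfectants in 1 fit. Tests were two-sided, and Benjamini-Hochberg adjustment ran over all genes tested. Signed differences are the first transfectant named minus the second. The spread behind the p-values is that of samples 1 and 2, which may be technical, and the control's own spread does not enter a ratio set against 0. Sample numbers 1 and 2 recur in every transfectant, but the labels give no link between equal numbers, so they were not paired. In simulated data the fit recovered 83% of genes changed by log2 1 in Slug (of 4116 genes in that step), 85% in E47 (4017) and 85% in Snail (3803), and 99%, 100% and 100% of those changed by log2 2. It also called 6, 4 and 14 unchanged genes in Slug, E47 and Snail. The simulation changed 100 genes by each size, fewer than were called in these data, and used independent normal noise. Alternatives were the centring and scaling of arrays, a single dye, missing arrays, spots and clones, filters, blocks, replicates left out, the sign of a transfectant, and the rows as deposited or left out.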

Additional observations from a re-analysis of the deposited data

Results flagged for a closer look

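For 13 differences between transfectants among the 10 genes, the fit across all genes put the difference itself past the threshold; they are given as log2 differences ± SE, and since the genes were chosen on these ratios they are descriptions. ITGA6 differed in all 3 pairs, by 0.97 ± 0.16 for Slug against Snail, 2.13 ± 0.16 for E47 against Snail and -1.16 ± 0.16 for Slug against E47. ITGA7 differed by 2.03 ± 0.23 for E47 against Snail and -1.86 ± 0.23 for Slug against E47. ITGA10 differed by 1.10 ± 0.15 for Slug against Snail and 0.72 ± 0.15 for Slug against E47. ITGBL1 differed by 0.61 ± 0.20 for Slug against Snail and 1.10 ± 0.20 for E47 against Snail. SDC4 differed by 1.38 ± 0.17 for Slug against Snail and 0.81 ± 0.17 for E47 against Snail. VCL differed by 0.81 ± 0.19 and ACTN1 by 1.14 ± 0.22 for Slug against Snail.

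Displaced rows touched 21 of the 178 measured spot values of the members other than ACTN1. Realignment moved 18 of them by more than 0.5 and 12 by more than 1 on the log2 scale, and 11 changed sign. Outside the 10 genes, SPARC had Slug arrays between 3.36 and 4.57 after realignment.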

How the results depend on the processing

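Of the 57 values of the members against the control and between transfectants, no value past the threshold changed sign under an alternative that kept the assumed signs. With rows as deposited 14 of their calls were lost. Counts of genes past the threshold, over all genes, depended on the rows. With rows as deposited, Slug against control had 885 in place of 1724, E47 against control 210 in place of 549 and Snail against control 272 in place of 725. Slug against Snail then had 486 in place of 1201, E47 against Snail 93 in place of 470 and Slug against E47 30 in place of 427. Leaving the displaced rows out, which tests fewer genes, gave 962 for Slug against control, 604 for Slug against Snail and 168 for Slug against E47. Arrays titled Cy5 alone gave 1083 for Slug against control, 310 for E47 against control, 344 for Snail against control, 586 for Slug against Snail, 90 for E47 against Snail and 126 for Slug against E47. Arrays titled Cy3 alone gave 297 for E47 against control, 306 for Snail against control, 776 for Slug against Snail, 131 for E47 against Snail and 173 for Slug against E47. The 12 arrays with the sample as a random block gave 724 for E47 against Snail and 669 for Slug against E47. For Slug against E47, arrays scaled to the same spread gave 145, and the sign of Slug turned gave 1596. The cause was not tested, beyond the fewer arrays or genes that an alternative uses. With 1 sample left out, counts ran between 828 and 1980 for Slug against control, 108 and 775 for E47 against control and 379 and 723 for Snail against control. They ran between 630 and 1288 for Slug against Snail, 60 and 554 for E47 against Snail and 73 and 637 for Slug against E47; a sample left alone was assumed to vary like the others. With the sample number as a replicate block, counts were 1782 for Slug against control, 604 for E47 against control, 837 for Snail against control, 1299 for Slug against Snail, 545 for E47 against Snail and 488 for Slug against E47. Of 86 calls of named list and marker genes, 40 held under every alternative and 35 were lost with rows as deposited. Only 1 turned direction, PAK2 in Slug against control, at 0.0171 in the fit on single clones. That value is of a single clone of PAK2, whereas the gene value of -0.60 averages its clones. The clones of PAK2 therefore differ, and its other clones are not given here.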
